A study of Rattus norvegicus with 25 samples.

Results

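The genes described here are the rat MHC class II genes with the factors that serve them: the antigen-binding chains RT1-Ba, RT1-Bb, RT1-Da and RT1-Db1, the accessory chains RT1-DMa, RT1-DMb and RT1-DOb, the invariant chain Cd74, the protease Ctss and the transactivator Ciita. They were chosen by symbol, which each probe of the array received through its RefSeq accession. This gave 12 probes for 10 genes, all 10 of which were among the 12343 genes tested, of 15443 named genes on the array. The 25 rats were males of the F344 strain, 5 in each of 5 groups, and RNA of each one's esophageal epithelium was hybridised to 1 array.

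The NMBA+Alpha-T, NMBA+Delta-T and NMBA+Gamma enriched-T rats received N-nitrosomethylbenzylamine (NMBA) together with alpha-tocopherol, delta-tocopherol or a tocopherol mixture enriched in the gamma form. The NMBA rats received NMBA on a normal diet, and the Control rats ate the normal diet without NMBA. NMBA is a nitrosamine that induces tumours of the rat esophagus. The tocopherols are forms of vitamin E, distinguished by how many methyl groups the chromanol ring carries and where. The sources used here do not give doses, routes, times or ages, nor whether the tissue held tumours. The labels name the tissue as epithelium, and 7 of 10 listed markers of squamous epithelium were tested, Krt5, Krt14, Krt15, Krt4, Krt13, Cdh1 and Perp, each well above background on all 25 arrays.

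MHC class II molecules are heterodimers of an alpha and a beta chain that present peptides from the endosomal route to CD4 T cells. Dendritic cells, macrophages and B cells carry them constitutively, and interferon gamma induces them in many other cells, epithelial cells included, through IRF1 and Ciita. Ciita does not bind DNA itself. It joins the RFX complex, CREB and NF-Y on the X and Y boxes that class II promoters share. Cd74 occupies the binding groove of new molecules, Ctss cuts it down, the DM heterodimer exchanges the remnant for peptide and DO restrains DM.

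The promoters of the members were searched for letters of that paired element. A box spelled with other letters would be missed, so a window without a match may still hold the element. RefSeq windows of assembly GRCr8, running from 250 bases before to 50 after a gene's start, were at hand for 8 of the 10 genes. The letters ACNGATG (X-type) and GATTGG (Y-type, an NF-Y site) were searched on both strands, overlaps allowed. They were written after these windows had been read, so their share among the members is no test. An X-type followed within 40 bases by a Y-type match on the gene's strand occurred in 5 members, and in 21 of 33469 windows overall (0.0627%). Those windows belonged to 20 genes, among them the class II gene RT1-Db2, which is no member. The X-type letters were in 10.2% of all windows and the Y-type letters in 14.8%, and 1.41% held both. The sequences below are 66 bases each, 5′ to 3′ on the gene's strand, and end before the gene's start. Capitals mark the X-type and Y-type matches.
RT1-Da (chr20:4515315-4515380, plus strand): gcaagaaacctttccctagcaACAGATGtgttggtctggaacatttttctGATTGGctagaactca
RT1-Bb (chr20:4604165-4604230, minus strand): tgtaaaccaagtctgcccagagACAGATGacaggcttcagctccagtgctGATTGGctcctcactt
RT1-Db1 (chr20:4560228-4560293, minus strand): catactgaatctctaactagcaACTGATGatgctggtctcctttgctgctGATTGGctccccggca
RT1-DMa (chr20:4712385-4712450, minus strand): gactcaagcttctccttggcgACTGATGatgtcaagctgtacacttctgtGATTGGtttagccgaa
RT1-DOb (chr20:4627592-4627657, minus strand): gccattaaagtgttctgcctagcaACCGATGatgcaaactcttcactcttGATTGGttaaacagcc
RT1-Ba (chr20:4576963-4577028, plus strand): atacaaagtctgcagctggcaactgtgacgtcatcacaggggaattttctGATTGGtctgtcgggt
Between the 2 matches lay 22 bases in RT1-Da and RT1-DMa, 21 in RT1-Bb and RT1-Db1 and 19 in RT1-DOb. The RT1-Ba window held the Y-type letters without the X-type letters. The Ctss window held the X-type letters without the Y-type letters, and that of Cd74 held neither.

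Values are the log2 processed signal of a probe minus the 75th percentile of its array, so that a negative value is a signal below that percentile. They are compared between groups for 1 probe at a time, since signals of different probes are not on one scale. Between 70.6% and 79.8% of spots were well above background on an array, and any pair of arrays correlated at r = 0.963 or more over probes. Groups were spread unevenly over 4 slides. NMBA+Alpha-T rats 1 to 5 and NMBA+Delta-T rats 1 to 3 were on slide 1, and slide 2 carried NMBA+Delta-T rats 4 and 5, NMBA+Gamma enriched-T rats 1 to 5 and Control rat 1. Slide 3 carried NMBA rats 1 to 4 and Control rats 2 to 5, and slide 4 carried NMBA rat 5. No slide held both an NMBA rat and a tocopherol rat, and Control rat 1 is the only link between those slides. NMBA rat 4 stood apart, being the lowest of its group in 9 of the 10 genes, and results that rest on it are given with and without it. In whole tissue, fewer cells of a type and less RNA per cell cannot be told apart.

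Of the 12 probes, 11 were well above background on all 25 arrays and none was saturated. The exception was the RT1-Ba probe, on Control rat 2 alone. In 9 of the 10 genes, all but RT1-Ba, the NMBA rats had the highest group mean, and the gap from NMBA to the next group was the only step in the order of means that exceeded the larger of the 2 SDs beside it. The other groups followed in differing orders, with NMBA+Gamma enriched-T lowest in 8 genes. All of these orders are on the log2 scale and within a probe.

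**Figure D1:**
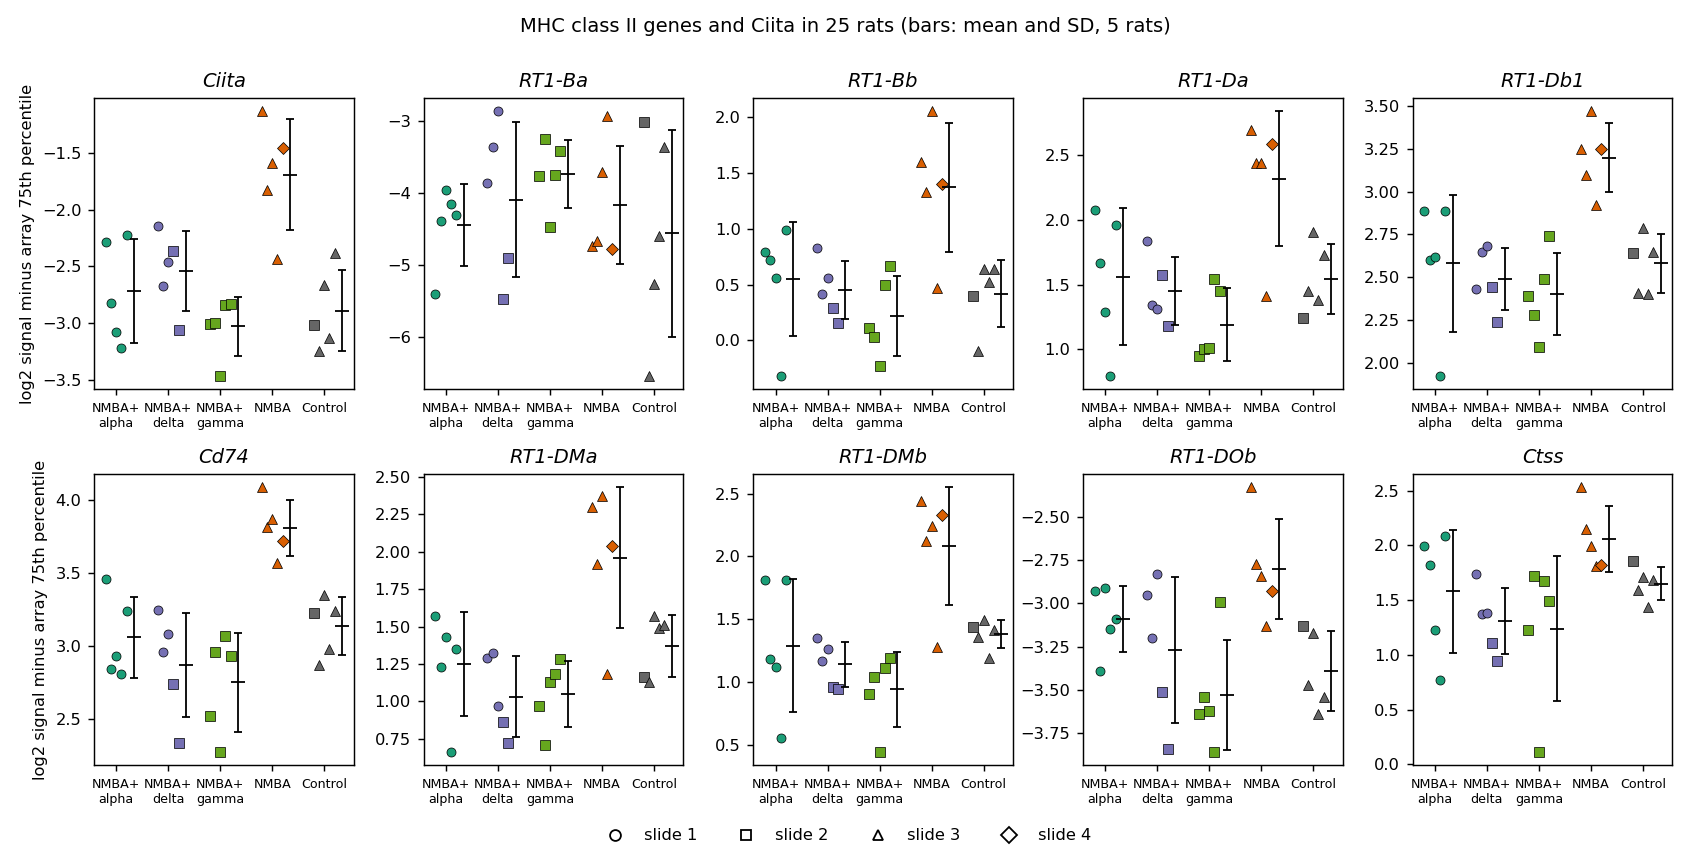
Level of each gene in the 25 rats (y axis, log2 signal minus the array's 75th percentile; x axis, group; marker shape, slide; bars, mean and SD of 5 rats). In 9 panels the NMBA rats lie highest on average, with rat 4 as their lowest point, while the RT1-Ba panel shows no such order and SDs from 0.47 to 1.44.

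Ciita, the transactivator, had values of -1.13, -1.82, -1.59, -2.43 and -1.45 in NMBA rats 1 to 5, against -3.02, -3.25, -2.66, -3.13 and -2.38 in Control rats 1 to 5. Except for NMBA rat 4, which lay just below Control rat 5, the NMBA rats were above all Control rats. The fitted difference of NMBA minus Control was 1.20 ± 0.24 (log2, SE, n = 5 rats each), a 2.3-fold higher level (limma adjusted p = 0.00859). Ciita was thus the 1 member that rose in the test, where 1.3% of all genes tested rose.

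The other members had fitted differences of the same sign that did not pass. Cd74, the invariant chain, had 4.09, 3.82, 3.87, 3.57 and 3.72 in NMBA rats, against 3.23, 2.87, 3.35, 2.98 and 3.24 in Control rats. Here the groups did not overlap, and the difference of 0.68 ± 0.18 had a limma adjusted p of 0.0599. RT1-Db1, a beta chain, ran between 2.92 and 3.47 in NMBA rats and between 2.40 and 2.79 in Control rats, again without overlap (0.62 ± 0.16, adjusted p = 0.0582). RT1-DOb, the beta chain of DO, ran between -3.13 and -2.33 in NMBA rats and reached no higher than -3.13 in Control rats (0.59 ± 0.19, adjusted p = 0.146). By the probes that represent these 3 genes every NMBA rat lay above every Control rat, as for 2.51% of all genes. On the second RT1-Db1 probe, given below, the groups overlapped.

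RT1-Bb, the beta chain of RT1-B, averaged 1.37 ± 0.58 in NMBA rats and 0.42 ± 0.30 in Control rats (SD, n = 5 each). The difference was 0.95 ± 0.26 (adjusted p = 0.0651), with only NMBA rat 4, at 0.47, inside the Control range. RT1-Da, the alpha chain of RT1-D, averaged 2.32 ± 0.52 in NMBA rats and 1.54 ± 0.27 in Control rats (0.77 ± 0.24, adjusted p = 0.128). The DM chains RT1-DMa and RT1-DMb differed by 0.59 ± 0.20 and 0.71 ± 0.22 (adjusted p = 0.185 and 0.13). Ctss, the protease, differed by 0.40 ± 0.27 (adjusted p = 0.554). Over the 10 genes the median difference was 0.65, against 0.05 over all genes, and 8 had an unadjusted p under 0.05, as had 12.8% of all genes.

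How many genes were called for NMBA against Control turned on 1 rat, while Ciita was called whichever rat was left out. Without NMBA rat 4, 7 of the 10 genes rose: Ciita, Cd74, RT1-Bb, RT1-Da, RT1-Db1, RT1-DMa and RT1-DMb. With slide as a fixed block, and within slide 3 alone, all 10 differences remained positive, between 0.51 and 1.11, but none was called (lowest adjusted p = 0.086 with the block and 0.134 within the slide). Ciita differed by 1.11 ± 0.28 with the block (95% interval 0.53 to 1.69, adjusted p = 0.0864).

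All 3 tocopherol groups are set against the same 5 NMBA rats, which also serve in NMBA against Control, so these comparisons are not independent. Ciita had -2.28, -2.82, -3.08, -3.22 and -2.22 in NMBA+Alpha-T rats 1 to 5. It had -2.14, -2.67, -2.46, -2.36 and -3.06 in NMBA+Delta-T rats, and -3.01, -3.00, -3.47, -2.84 and -2.83 in NMBA+Gamma enriched-T rats. All NMBA+Gamma enriched-T rats lay below all NMBA rats, whose values are given above, while some rats of the other tocopherol groups lay above NMBA rat 4. Against NMBA, Ciita fell by 1.04 in NMBA+Alpha-T rats (SE 0.24, adjusted p = 0.0184) and by 1.34 in NMBA+Gamma enriched-T rats (SE 0.24, adjusted p = 0.00364). The difference of -0.86 ± 0.24 in NMBA+Delta-T rats did not pass (adjusted p = 0.0544).

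Cd74 had 3.46, 2.84, 2.93, 2.81 and 3.24 in NMBA+Alpha-T rats, and 3.25, 2.96, 3.08, 2.74 and 2.33 in NMBA+Delta-T rats. In NMBA+Gamma enriched-T rats it had 2.52, 2.96, 2.27, 3.07 and 2.93. None of these 15 rats reached the lowest NMBA rat, at 3.57. Cd74 fell in all 3 comparisons with NMBA, by 0.76 in NMBA+Alpha-T, 0.94 in NMBA+Delta-T and 1.06 in NMBA+Gamma enriched-T rats (SE 0.18 each; adjusted p = 0.0216, 0.0192 and 0.00364).

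The antigen-binding chains did not all pass. RT1-Db1 fell in each comparison, by 0.62, 0.71 and 0.80 in NMBA+Alpha-T, NMBA+Delta-T and NMBA+Gamma enriched-T rats (SE 0.16 each, adjusted p = 0.0372, 0.0297 and 0.00515). By the probe that represents RT1-Db1, no tocopherol rat reached the NMBA range. RT1-Da and RT1-Bb passed for NMBA+Gamma enriched-T alone, where they fell by 1.12 ± 0.24 and 1.15 ± 0.26 (adjusted p = 0.00706 and 0.00829). For NMBA+Alpha-T and NMBA+Delta-T their differences were -0.75 and -0.87 for RT1-Da, and -0.82 and -0.92 for RT1-Bb (adjusted p from 0.0532 to 0.0806). Whether these effects differ between tocopherols is tested below.

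The second probes of RT1-Bb and RT1-Db1 followed the first over the 25 arrays (r = 0.883 and 0.86), but not every call was shared. Fitted over all probes, the second RT1-Bb probe passed against NMBA in all 3 tocopherol groups, with differences of -1.20, -0.96 and -1.12 for NMBA+Alpha-T, NMBA+Delta-T and NMBA+Gamma enriched-T (adjusted p = 0.00793, 0.0363 and 0.00864). The second RT1-Db1 probe passed for NMBA+Gamma enriched-T, at -1.12 (adjusted p = 0.0146), and had -0.48 and -0.73 for NMBA+Alpha-T and NMBA+Delta-T (adjusted p = 0.33 and 0.121). For NMBA minus Control the second RT1-Bb and RT1-Db1 probes had 0.78 and 0.80 (limma adjusted p = 0.155 and 0.215). On the second RT1-Db1 probe the NMBA rats, at 1.46 to 2.81, overlapped the Control rats, at 1.30 to 1.99. They also overlapped the NMBA+Alpha-T, NMBA+Delta-T and NMBA+Gamma enriched-T rats, which reached 2.56, 2.19 and 1.70. Rat genes of this family are close in sequence, and hybridisation of a probe to the transcript of a paralog such as RT1-Db2 was not tested.

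RT1-DMa and RT1-DMb, the chains that exchange peptide, fell in all 3 comparisons with NMBA. RT1-DMa fell by 0.72, 0.93 and 0.91 in NMBA+Alpha-T, NMBA+Delta-T and NMBA+Gamma enriched-T rats (SE 0.20 each; adjusted p = 0.046, 0.0266 and 0.00801). RT1-DMb fell by 0.79, 0.95 and 1.15 in those groups (SE 0.22 each; adjusted p = 0.0457, 0.0297 and 0.00416). RT1-DOb passed for NMBA+Gamma enriched-T alone, where it fell by 0.73 ± 0.19 (adjusted p = 0.0188); its other differences were -0.29 and -0.47 for NMBA+Alpha-T and NMBA+Delta-T. Ctss differed by -0.48, -0.75 and -0.82 in the 3 groups, with adjusted p of 0.353, 0.11 and 0.0567, and in none did it pass.

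In all, 5 of 10 genes fell in NMBA+Alpha-T rats, where 2.52% of all genes fell. In NMBA+Delta-T rats 4 of 10 fell, against 2.02% of all genes, and in NMBA+Gamma enriched-T rats 8 of 10 fell, against 7.36%. The tocopherol rats lay entirely below the NMBA rats in 2, 3 and 5 genes for alpha, delta and gamma-enriched, against 2.97%, 4.0% and 5.13% of all genes. The median differences from NMBA were -0.74, -0.86 and -0.99, against -0.03, -0.05 and -0.10 over all genes.

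**Figure D2:**
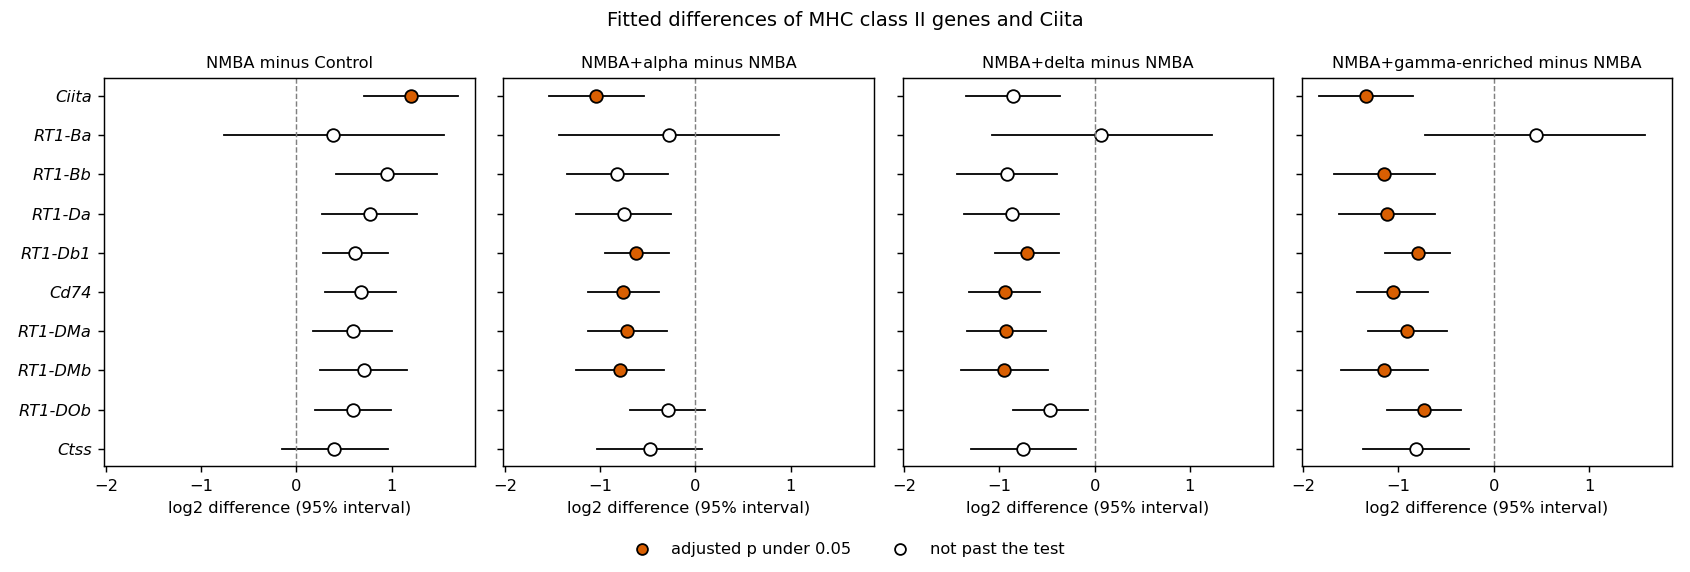
Fitted log2 difference of each gene (x axis; point, estimate; line, 95% interval) in 4 comparisons, with filled points where the limma adjusted p was under 0.05. Ciita alone is filled for NMBA minus Control, and 5, 4 and 8 genes are filled for alpha, delta and gamma-enriched against NMBA. The RT1-Ba intervals are the widest and span 0 in each panel.

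With slide as a fixed block, none of these falls was called (lowest adjusted p = 0.457, 0.64 and 0.998 for alpha, delta and gamma-enriched), and all 10 differences were negative in each. In that fit each difference was reached through Control rat 1 and through NMBA minus Control within slide 3. The latter was positive in all 10 genes and is shared by the comparisons, so their negative signs are not separate support. Without RT1-Ba the differences ran between -1.47 and -0.43 for NMBA+Alpha-T, -1.43 and -0.50 for NMBA+Delta-T, and -1.21 and -0.63 for NMBA+Gamma enriched-T. Leaving out 1 rat moved the number of genes called to between 0 and 7 for NMBA+Alpha-T and for NMBA+Delta-T, and to between 7 and 9 for NMBA+Gamma enriched-T. No gene was called for NMBA+Alpha-T without its rat 4 or without NMBA rat 1, nor for NMBA+Delta-T without NMBA rat 1, 2 or 3. For NMBA+Alpha-T, 1 gene (Ciita) was called without its rat 2 or without NMBA rat 3, and 2 (Cd74 and Ciita) without its rat 3 or without NMBA rat 2 or 5. For NMBA+Delta-T, 2 genes (Cd74 and RT1-DMa) were called without its rat 2, 4 or 5. Without NMBA rat 4, 7, 7 and 9 genes fell in alpha, delta and gamma-enriched, and without NMBA+Delta-T rat 1, 7 fell in delta.

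RT1-Ba, the alpha chain of RT1-B, stood apart from the other members. It had -5.41, -4.38, -3.96, -4.15 and -4.30 in NMBA+Alpha-T rats, -3.86, -3.36, -2.86, -5.47 and -4.90 in NMBA+Delta-T rats, and -3.76, -3.25, -4.47, -3.75 and -3.41 in NMBA+Gamma enriched-T rats. It had -4.73, -4.66, -3.71, -2.93 and -4.78 in NMBA rats and -3.01, -6.55, -5.27, -4.60 and -3.36 in Control rats. All 5 groups overlapped, and NMBA rat 4, the lowest of its group in the 9 other genes, was the highest here. The difference of NMBA minus Control was 0.39 ± 0.56 (adjusted p = 0.799), and the SD within groups ran from 0.47 to 1.44. With slide as a block its difference from NMBA was -4.19 ± 1.15 in place of -0.28 for NMBA+Alpha-T (adjusted p = 0.457). The sign changed for NMBA+Delta-T and NMBA+Gamma enriched-T, with -3.11 ± 1.03 in place of 0.07 and -1.65 ± 0.95 in place of 0.44 (adjusted p = 0.663 and 0.998). With the block these differences were reached through Control rat 1, which at -3.01 was the highest Control rat for RT1-Ba. The partner chain RT1-Bb, read by other probes, had within-group SDs between 0.26 and 0.58.

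Tocopherol rats were also set against Control rats, to ask whether levels differed from those of rats without NMBA. None of the 10 genes passed in any of the 3 comparisons (limma), where 0.818%, 0.194% and 0.632% of all genes passed for alpha, delta and gamma-enriched. At an unadjusted p under 0.05 the counts were 0, 0 and 1, where 13.7%, 10.8% and 18.4% of all genes had such a p. The 1 was Cd74 in NMBA+Gamma enriched-T minus Control, at -0.38 ± 0.18. With only 10 genes, these counts do not set the members apart from all genes. Leaving out RT1-Ba, the differences ran between -0.13 and 0.30 for alpha, -0.35 and 0.35 for delta, and -0.44 and -0.14 for gamma-enriched. Their 95% intervals reached from -0.63 to 0.69, from -0.90 to 0.84 and from -0.96 to 0.36. Differences of up to those sizes are not excluded, and that fit left slide out. With slide as a fixed block none passed (lowest limma adjusted p = 0.388, 0.577 and 0.984). In that fit the comparisons with Control rested on Control rat 1, the only Control rat on a slide with tocopherol rats. Without RT1-Ba the differences with the block ran between -0.75 and 0.20, -0.83 and 0.30, and -0.61 and -0.01. Intervals were wider, such as -2.03 to 0.53 for Ctss in alpha. RT1-Ba had -3.25, -2.17 and -0.72 with the block.

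The tocopherols were compared with each other in 3 pairs, each adjusted over all genes. No member passed in any pair: the lowest adjusted p was 1 for delta minus alpha, 0.288 for gamma-enriched minus alpha and 0.949 for gamma-enriched minus delta, while 0.0%, 1.62% and 0.0% of all genes passed. At an unadjusted p under 0.05 the counts of members were 0, 1 (RT1-DOb, -0.44 ± 0.19 for gamma-enriched minus alpha) and 0, against 4.63%, 14.6% and 4.08% of all genes. Ciita differed by 0.18, -0.30 and -0.49 in the 3 pairs (SE 0.24 each), with 95% intervals of -0.31 to 0.68, -0.80 to 0.19 and -0.98 to 0.01. Cd74 differed by -0.19, -0.31 and -0.12 (SE 0.18 each), with intervals of -0.56 to 0.19, -0.68 to 0.07 and -0.50 to 0.25. With slide as a block, differences of gamma-enriched minus alpha ran between -0.25 and 0.26 without RT1-Ba, and Cd74 changed sign in all 3 pairs. Doses are not known, so these are comparisons of the groups as treated.

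Within groups, rats with more Ciita had more of most class II transcripts. Deviations from group means were correlated with those of Ciita over 25 rats for 9 genes, with permutation p-values (two-sided, 100000 resamples within groups). Values adjusted over these 9 relations stand beside them, though the genes were chosen with earlier results known. RT1-Da had r = 0.86 and rho = 0.86, RT1-DMb 0.85 and 0.85, Cd74 0.78 and 0.80, and RT1-Bb 0.78 and 0.79 (permutation p for r from 1e-05, the smallest these resamples can give, to 4e-05, adjusted 4.5e-05 to 9e-05; for rho 1e-05 to 2e-05). RT1-Db1 followed at 0.70 and 0.71, Ctss at 0.69 and 0.67, and RT1-DMa at 0.67 and 0.62 (permutation p for r = 0.00018, 9e-05 and 0.00186, adjusted 0.00027, 0.000162 and 0.00239; for rho 0.0003, 0.00094 and 0.00335). These 7 genes lay above the 95th percentile of Ciita's within-group r with all other tested genes, 0.552, around a median of 0.117.

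RT1-DOb and RT1-Ba had the lowest correlations with Ciita. RT1-DOb had r = 0.45 (permutation p = 0.033, adjusted 0.0371) and rho = 0.39 (permutation p = 0.0737, adjusted 0.0829). RT1-Ba had r = -0.04 and rho = -0.07 (permutation p = 0.856 and 0.773). Without NMBA rat 4 and NMBA+Delta-T rat 5, the rats farthest from the median of Ciita, r was 0.83 for RT1-Da, 0.81 for RT1-DMb, 0.75 for Cd74, 0.71 for RT1-Bb, 0.70 for Ctss, 0.65 for RT1-Db1, 0.52 for RT1-DMa and 0.27 for RT1-DOb. The relation of RT1-DOb therefore rested on those 2 rats. With slide removed too, over 23 rats, r ran between 0.49 for RT1-DOb and 0.87 for RT1-Da among the 8 genes other than RT1-Ba. Array quality and RNA are shared by all genes of a rat, and their part in these correlations was not tested.

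**Figure D3:**
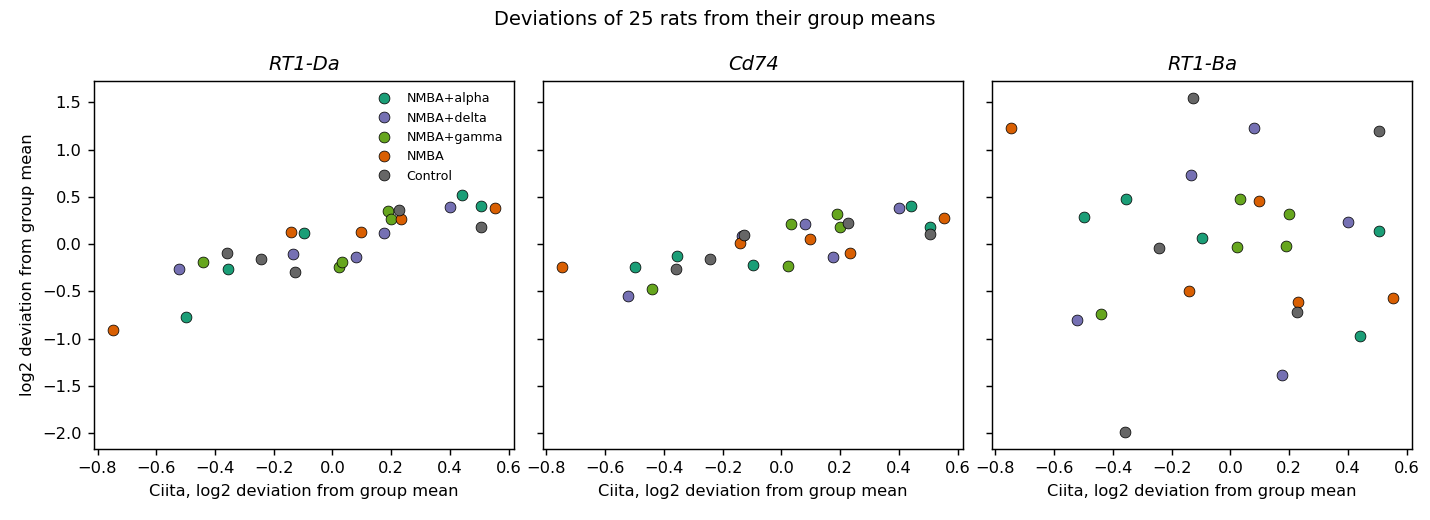
Deviation of each of 25 rats from its group mean (log2) for Ciita (x axis) and for RT1-Da, Cd74 or RT1-Ba (y axis), coloured by group. RT1-Da (r = 0.86) and Cd74 (r = 0.78) increase with Ciita, and RT1-Ba (r = -0.04) scatters without order.

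The members also moved with each other. Among the 9 genes other than RT1-Ba the 36 pairs had within-group r from 0.32 to 0.87, with a median of 0.69, as a description over the same 25 arrays. RT1-Ba had r from -0.35 to 0.25 with the 9. The same rats were low in most genes of their group: NMBA+Alpha-T rat 4 was lowest in 8 of 10, NMBA+Delta-T rat 5 in 9, NMBA+Gamma enriched-T rat 3 in 7 and NMBA rat 4 in 9.

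The tested genes most like Ciita over the 25 arrays, group means included, were Cd3d (r = 0.94), Bcl2a1, Lypd8l1, Il2rb and Coro1a (r = 0.93 each), with r within groups from 0.83 to 0.89. Those most like Cd74 were Cst7 (0.92), Zap70, Icam1 and Bcl2a1 (0.91 each) and Cd40 (0.90), with r within groups from 0.72 to 0.88. Cd3d is a chain of the T cell receptor complex, Zap70 its kinase, Il2rb a subunit of the interleukin-2 receptor and Cd40 a co-stimulatory receptor of antigen-presenting cells.

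Of 20 listed regulators upstream of the class II genes, 18 were tested. Irf1, the interferon-induced factor that acts on a Ciita promoter, differed by 0.92 in NMBA against Control rats (adjusted p = 0.165). Against NMBA, Irf1 fell by 1.28, 1.14 and 1.43 in alpha, delta and gamma-enriched rats (adjusted p = 0.0213, 0.0476 and 0.00669). Spi1, a myeloid and B cell factor, fell by 0.99 in delta rats (adjusted p = 0.0196) and likewise in gamma-enriched rats (adjusted p = 0.00364), and Ifngr1, a chain of the interferon gamma receptor, fell by 0.47 in delta rats (adjusted p = 0.0297). With slide as a block Spi1 was -0.16 and -0.18 in delta and gamma-enriched against NMBA, and Ifngr1 was -0.87 in delta, none of them called. Irf2 was also called lower in alpha rats, but was well above background on only 1 NMBA+Alpha-T and 2 NMBA arrays. The list's median difference was 0.17 for NMBA against Control, then -0.01, -0.07 and -0.21 for alpha, delta and gamma-enriched against NMBA. Ifng itself was well above background on 3 of 25 arrays and was not tested.

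Among other genes of class II antigen processing, 12 of the 13 listed were tested. None passed for NMBA against Control (limma; 3 had an unadjusted p under 0.05), and 1, 1 and 5 fell in alpha, delta and gamma-enriched against NMBA (medians 0.14, -0.29, -0.46 and -0.44). Over all genes, 12.8% had such a p for NMBA against Control, and 2.52%, 2.02% and 7.36% fell in the tocopherol comparisons with NMBA. Ifi30, the lysosomal thiol reductase, fell in each, by 0.56 in alpha (adjusted p = 0.00772) and by 0.59 in delta (adjusted p = 0.0168). RT1-DOa, the alpha chain of DO, fell by 1.41 ± 0.35 in gamma-enriched rats (adjusted p = 0.0146), as did the protease inhibitor Cst3 by 0.83 and the cathepsins Ctsd and Ctsz by 0.74 and 0.73. RT1-DOa and the poorly detected Marchf1 had the largest differences of NMBA minus Control, that of RT1-DOa being 0.89 (adjusted p = 0.276).

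Genes of the class I pathway were called as well. Of 19 listed, 15 were tested, and 3 rose in NMBA against Control rats: the immunoproteasome subunits Psmb8 and Psmb9, by 1.37 and 1.31 (adjusted p = 0.0135 and 0.0162), and the peptide transporter chain Tap1, by 1.17 (adjusted p = 0.00482). Against NMBA, 5, 2 and 9 fell in alpha, delta and gamma-enriched rats, with medians of 0.43, -0.46, -0.55 and -0.63 over the 4 comparisons. Psmb8 fell in each of the 3, by 1.28, 1.26 and 1.55. Of 15 genes listed for the response to interferon gamma, 12 were tested; 6 rose in NMBA against Control rats and 7, 4 and 9 fell against NMBA (medians 1.1, -0.98, -0.98 and -1.23). This list shares genes such as Irf1, Tap1 and Psmb9 with those above, and it holds the chemokine Cxcl9, at 3.60 ± 0.51 in NMBA against Control. Beside the counts of both lists, 1.3% of all genes rose in NMBA against Control rats. Against NMBA, 2.52%, 2.02% and 7.36% of all genes fell in alpha, delta and gamma-enriched rats.

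Among 8 co-stimulatory genes, 6 were tested. None passed for NMBA against Control (3 at an unadjusted p under 0.05), and 1, 1 and 3 fell in the tocopherol groups (medians 0.65, -0.70, -0.85 and -0.93). The shares of all genes were 12.8% for such a p, and 2.52%, 2.02% and 7.36% for the falls. Icam1, an adhesion ligand of T cells, fell by 0.89, 1.04 and 1.14 in alpha, delta and gamma-enriched rats (adjusted p = 0.0112, 0.0164 and 0.00364). Cd40 and Cd80 fell in gamma-enriched rats, by 1.27 and 1.01 (adjusted p = 0.00454 and 0.0147). With slide as a fixed block, Tap1 and Psmb8 still passed for NMBA against Control (1.17 and 1.40; adjusted p = 0.0318 and 0.0331), as did Cxcl9 (3.47, adjusted p = 0.00402), and Psmb9 did not (1.20, adjusted p = 0.102). None of the listed genes named here passed against NMBA with that block, where over all genes 1 was called in each comparison, and it was higher. In gamma-enriched against NMBA the block left Cst3 at -0.42 and RT1-DOa at -2.13, while Ctsd and Cd80 changed sign, to 0.18 and 0.10. Psmb8 was -2.61 and -2.20 in alpha and delta against NMBA with the block.

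Markers of cells that carry class II molecules were measured beside the members. Of 13 markers listed for dendritic and Langerhans cells, 7 were tested. None passed for NMBA against Control (2 at an unadjusted p under 0.05, where 12.8% of all genes had one), and the median difference was 0.12 and the largest was that of Clec9a, 2.04 ± 0.64 (adjusted p = 0.131). Against NMBA, 0, 0 and 1 fell (1, 3 and 4 at an unadjusted p under 0.05, against 18.4%, 20.1% and 26.2% of all genes). The 1 was Zbtb46, a factor of classical dendritic cells, which fell by 0.99 in gamma-enriched rats (adjusted p = 0.00515) but had 0.08 with slide as a block (adjusted p = 0.998). The list's score, the mean over its genes of a rat's value minus the mean of all rats, lay between -0.77 and 0.36 in alpha, -0.51 and 0.24 in delta, -1.21 and 0.15 in gamma-enriched, 0.03 and 0.70 in NMBA, and -0.22 and 0.43 in Control rats. Cd207, Itgax and Flt3 had no named probe kept, and Xcr1 and Ccr7 were well above background on 2 arrays and 1 array.

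All 12 macrophage markers were tested. None passed for NMBA against Control (median 0.19; 1 at an unadjusted p under 0.05), and 0, 1 and 2 fell against NMBA (3, 5 and 6 unadjusted), among them Aif1 by 1.02 and the complement gene C1qa by 0.90 in gamma-enriched rats. With slide as a block Aif1 and C1qa had -0.75 and -0.62 and did not pass. The gene called in delta was Marco, well above background on 0 NMBA+Delta-T and 2 NMBA arrays. Beside the macrophage counts and the B cell counts below, 12.8% of all genes had an unadjusted p under 0.05 for NMBA against Control. Against NMBA 18.4%, 20.1% and 26.2% of all genes had one, and 2.52%, 2.02% and 7.36% fell. The macrophage score lay between -0.91 and 0.41 in alpha, -0.50 and 0.13 in delta, -1.44 and 0.27 in gamma-enriched, -0.38 and 0.67 in NMBA, and 0.02 and 0.31 in Control rats. Of 8 B cell markers 5 were tested; 0 passed for NMBA against Control (also 0 unadjusted) and 0, 0 and 1 fell against NMBA (1, 3 and 4 unadjusted; medians 0.27, -0.49, -0.58 and -0.78 over the 4 comparisons). The gene called was Cd79b, well above background on 0 NMBA+Gamma enriched-T and 2 NMBA arrays and at -0.06 with slide as a block.

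Most T cell markers moved. All 10 were tested. Of these, 8 rose in NMBA against Control rats, where 1.3% of all genes rose. Among the 8, Cd27 and Cd8b were well above background on only 0 and 1 Control arrays. Against NMBA 5, 6 and 8 fell in alpha, delta and gamma-enriched, where 2.52%, 2.02% and 7.36% of all genes fell. The medians over the 4 comparisons were 1.45, -1.19, -1.34 and -1.48. Cd3d rose by 2.24 ± 0.45 (adjusted p = 0.00976; 1.87 with slide as a block, adjusted p = 0.0994) and fell by 1.96 in alpha, fell by 1.93 in delta and fell by 2.38 in gamma-enriched rats against NMBA. With slide as a block the differences of Cd3d from NMBA were -1.98, -1.64 and -1.63 in those groups, and none passed. The T cell score lay between -0.72 and 0.37 in alpha, -0.88 and 0.41 in delta, -1.18 and -0.06 in gamma-enriched, 0.24 and 1.58 in NMBA, and -0.76 and 0.12 in Control rats. NMBA rat 4 was again the lowest NMBA rat, at 0.24, where the 4 others had 1.02 to 1.58. Thus T cell markers moved with the class II genes between groups, and both were low in NMBA rat 4. That rat was also the lowest NMBA rat in the scores of most other lists. Squamous epithelium was among them, at 0.07, where the 4 others had 0.38 or 0.39. For macrophages, fibroblasts and endothelium NMBA rat 5 was the lowest. The part of T cells in the class II differences was not tested.

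Of squamous epithelium 0 of 7 markers passed for NMBA against Control (3 unadjusted), while 1, 1 and 4 fell in the tocopherol groups against NMBA (medians 0.25, -0.43, -0.54 and -0.73), such as Krt4 by 0.81 in gamma-enriched rats. Under quantile normalization Krt4 had -0.18 in that comparison, and with slide as a block -0.14, and did not pass in either. Of 7 fibroblast markers 0, 0, 0 and 1 passed in the 4 comparisons (3, 1, 1 and 1 unadjusted), the 1 being Dcn, lower in gamma-enriched rats and at -0.17 with slide as a block. All 7 had negative differences of NMBA minus Control, opposite in sign to the class II genes, with a median of -0.46, and the medians against NMBA were 0.27, -0.03 and -0.30. Of 4 endothelial markers none passed (0, 0, 1 and 1 unadjusted; medians -0.19, -0.16, -0.09 and -0.53). Beside the counts in this paragraph, 12.8%, 18.4%, 20.1% and 26.2% of all genes had an unadjusted p under 0.05 in the 4 comparisons. Against NMBA, 2.52%, 2.02% and 7.36% of all genes fell. The part of squamous epithelium, fibroblasts and endothelium in the class II differences was not tested either.

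**Figure D4:**
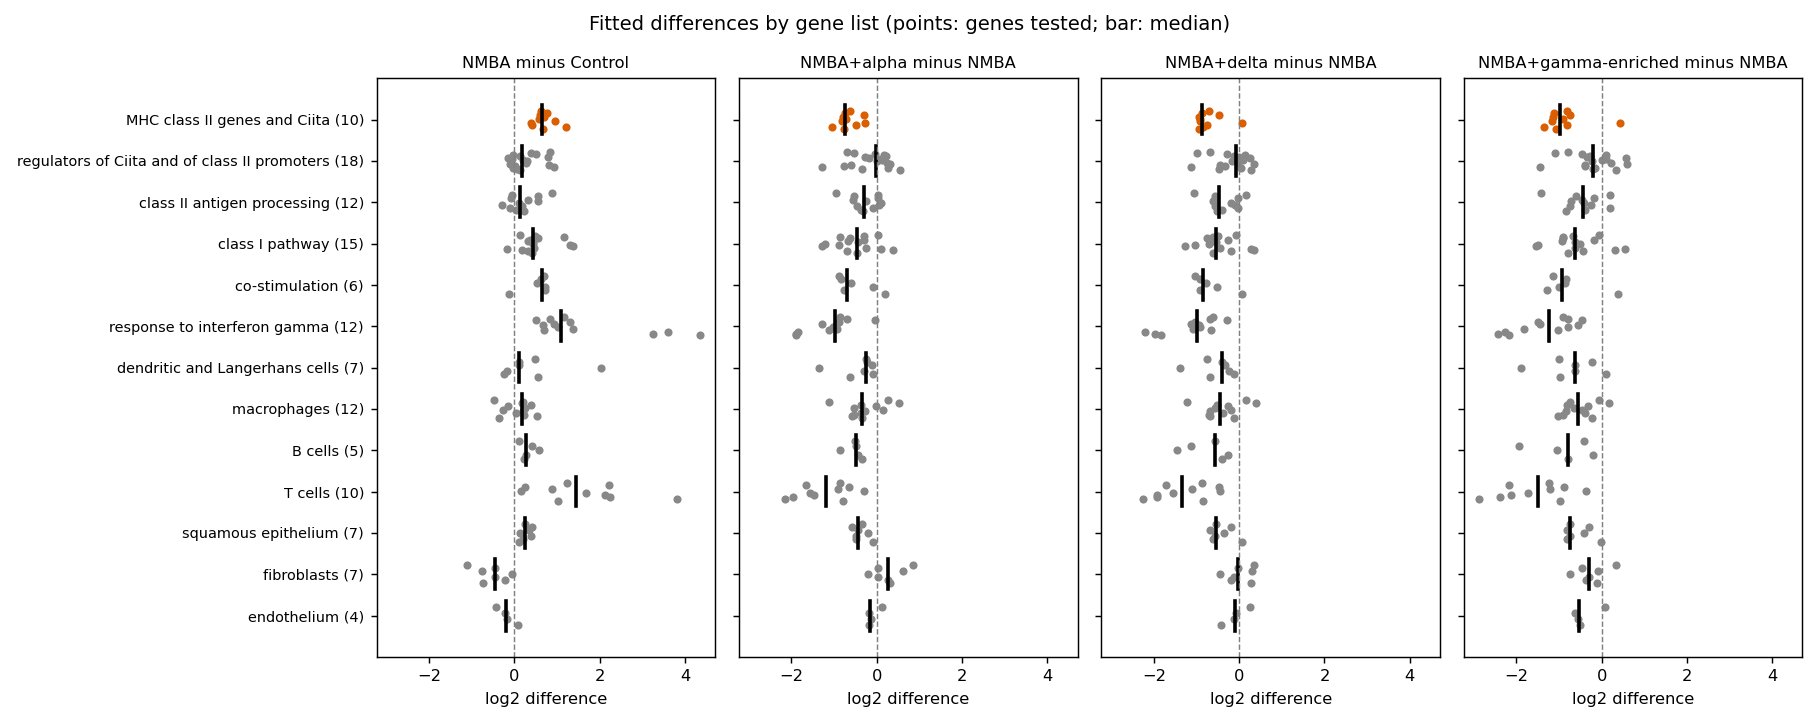
Fitted log2 differences of all tested genes of each list (x axis; points, genes; bar, list median; number tested in brackets) in 4 comparisons. The class II genes have medians of 0.65, -0.74, -0.86 and -0.99, T cell markers 1.45, -1.19, -1.34 and -1.48, and dendritic cell markers 0.12, -0.26, -0.39 and -0.62.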

How the data were processed

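One-colour (Cy3) Agilent arrays measured total RNA of 25 rats, 5 per group. The scanner files hold spot intensity as deposited by the authors, background-subtracted and not normalized between arrays; per the file headers they came from Agilent Feature Extraction 11.5.1.1, whereas the submitters' processing notes name version 10.7. The authors also deposited a value table on a log2 scale with each array's 75th percentile near 0, used as an alternative. No column (0) belonged to samples outside the series.

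From the processed signals, outlier spots were dropped, log2 values were averaged per probe and each array's 75th percentile over non-control spots was subtracted. To be kept, a probe had to be well above background on 5 arrays or more; each gene is represented by its brightest kept probe. Of 30367 probes 18355 matched a RefSeq symbol; the symbol table is of assembly GRCr8. A group-means model over the 25 arrays was fitted in limma 3.58.1 (R 4.3.3; 20 residual degrees of freedom), and 10 contrasts were tested two-sided, Benjamini-Hochberg adjusted over 12343 genes in each, at 0.05. The number of arrays limits the precision. The fit was tested on simulated data.

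The members and lists were chosen with earlier results of these data known. All members were described, with up to 4 called genes of each pathway list by size of difference (2 where none was called), up to 3 of each cell marker list, and the 5 genes most like Ciita or Cd74. Alternatives covered scaling, background correction, the deposited table, probe filters, slide, replicate number, the groups fitted and each rat left out. The results of 1 listed gene are not reported here.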

Additional observations from a re-analysis of the deposited data

Results flagged for a closer look

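In each of the 50 sets of 5 values (10 genes, 5 groups) the rat farthest out was compared with Dixon's critical value of 0.71 for its gap over the group's range, which chance exceeds in about 5% of sets. In 4 sets it was exceeded. Ciita in NMBA+Gamma enriched-T rat 3 was -3.47, where the other 4 rats lay between -3.01 and -2.83. RT1-Ba in NMBA+Alpha-T rat 1 was -5.41, against -4.38 to -3.96 in the others. NMBA rat 4 accounted for the other 2 sets: RT1-Da was 1.41 there, against 2.44 to 2.70 in the other NMBA rats, and RT1-DMb was 1.28, against 2.12 to 2.44.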

How the results depend on the processing

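For NMBA against Control, where 1 of the 10 genes was called, 4 were called with the array median subtracted, 2 with normexp background correction (on the median signal, chosen after seeing the data because the files hold no mean signal), and 0 with slide as a fixed block, within slide 3 and with only the 2 groups fitted. For NMBA+Alpha-T against NMBA (5 called) there was 1 under quantile normalization, 3 under normexp, and 0 with the slide block and with 2 groups. For NMBA+Delta-T (4 called) there were 7 with the array median, the deposited table, no filter on dim probes and slide as a random block, 1 with 2 groups and 0 with the slide block. For NMBA+Gamma enriched-T (8 called) the slide block gave 0 and quantile normalization gave 7. Quantile normalization gave 3 for NMBA+Delta-T. Under it Cd74 was called against NMBA for gamma-enriched alone, and RT1-Db1 for no tocopherol group. Leaving out 1 rat gave 1 to 7, 0 to 7, 0 to 7 and 7 to 9 in these comparisons. Against Control and between tocopherols, 0 of 10 genes were called under every alternative run. Correlation with Ciita within groups was past the threshold for 8 genes, and for 7 to 8 under the alternatives.

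Over all genes, calls numbered 191 for NMBA against Control (96 to 297 without 1 rat, 31 to 227 otherwise), 471 for alpha (191 to 454, 1 to 2141), and 307 for delta (13 to 566, 1 to 961); for gamma-enriched against NMBA they ran over 546 to 1588 and 1 to 3321. Against Control the counts were 101, 24 and 78 (25 to 111, 15 to 81 and 25 to 697 without 1 rat; 4 to 312, 4 to 57 and 4 to 308 otherwise), and for gamma-enriched against alpha 200 (24 to 556, 0 to 440).

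Replicate numbers do not pair the rats: of 5 same-numbered pairs per comparison, at most 3 had r over 0.1 (lowest -0.584, highest 0.529). With a replicate block, 1, 4, 4 and 8 genes were called.

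Signs turned for RT1-Ba without 1 rat, in NMBA minus Control (-0.10 to 0.78), NMBA+Alpha-T minus NMBA (-0.43 to 0.03) and NMBA+Delta-T minus NMBA (-0.23 to 0.42), the negative values of the last being -0.23, -0.11, -0.07, -0.05 and -0.08. With the slide block RT1-Ba was -3.11 and -1.65 for delta and gamma-enriched minus NMBA, and -4.19 for alpha. Those values were reached through Control rat 1, whose RT1-Ba value of -3.01 was the highest among Control rats. With the same block Cd74 was 0.04 for delta minus alpha, also within slide 1, 0.26 for gamma-enriched minus alpha, and 0.22 for gamma-enriched minus delta, also within slide 2. Against NMBA with that block, Ctsd was 0.18, Cd80 0.10, Zbtb46 0.08 and Perp 0.26 for gamma-enriched, and Krt4 0.01 for delta. The causes were not tested. Of the other single-gene values under alternatives, 2223 kept direction and side of the threshold, 405 lost and 43 gained a call.

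Limits: 1 array per rat and 5 rats per group; the slides nearly coincide with the groups, so that for tocopherol against NMBA the slide and the treatment cannot be told apart beyond what Control rat 1 links.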
